A study of Mus musculus with 9 samples.

Results

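Keratins are the intermediate filament proteins of epithelial cells, and the 7 keratin genes described here are those known from hair follicles, touch domes and wounded epidermis. They are Krt17 (ENSMUSG00000035557), Krt16 (ENSMUSG00000053797), Krt6a (ENSMUSG00000058354), Krt6b (ENSMUSG00000023041), Krt75 (ENSMUSG00000022986), Krt79 (ENSMUSG00000061397) and Krt24 (ENSMUSG00000020913). They were taken by symbol, through the Ensembl identifiers of the deposited table, and make up 7 of its 55357 genes and 7 of its 54 keratin genes. Poly(A) RNA was sequenced from 3 keratinocyte populations sorted from mouse back skin, with 3 libraries each. Touchdome cells were EPCAM+, integrin α6+, SCA1+ and TOMATO+. HF cells, from the hair follicle gate, were EPCAM+ and integrin α6+ but SCA1- and TOMATO-. IFE cells, from the gate for interfollicular epidermis, were EPCAM+, integrin α6+, SCA1+ and TOMATO-. All 3 groups came from C57BL/6 mice at postnatal day 60 with the genotype TNC-CREER; tdTomato, so HF and IFE cells carried the recombinase and the reporter gene as well. All mice had received tamoxifen at 100 µg per g body weight on postnatal days 51 and 52. The skin of every group was held in 0.25% trypsin for 60 min at 37 °C before sorting. Since the recombinase is driven by Tnc (Tenascin-C), the reporter marks cells that expressed Tnc around the time of tamoxifen, and reporter-positive follicle cells outside the SCA1+ gate were in none of the groups. Nothing in the labels states that replicate libraries are separate animals. The p-values therefore describe only the variation among these samples, part or all of which may be technical.

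Keratin filaments are built from pairs of a type I and a type II keratin, and each layer of skin has its own pairs. Krt16 and Krt17 are type I keratins and Krt6a and Krt6b are type II keratins that keratinocytes at a wound edge switch on, and members of this group are also present in the follicle of unwounded skin. Krt17 is further known from touch domes, small epidermal patches beside certain follicles where Merkel cells meet sensory nerves. Krt75 is the type II keratin of the companion layer, which lies between the outer and the inner root sheath. Krt79 is a type II keratin of the infundibulum and the sebaceous duct, at the mouth of the follicle, and Krt24 is a type I keratin.

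The libraries held 10735431 to 15477297 expected counts in Touchdome, 9295059 to 21358479 in HF and 14647371 to 28249763 in IFE. Levels are counts scaled to library size (CPM, after TMM scaling), given for replicates 1, 2 and 3 in that order, and a fold change is the log2 ratio of the first group over the second ± its standard error (SE). A gene was called where the p-value of edgeR's quasi-likelihood test, adjusted over all 15046 genes tested, was under 0.05, and all adjusted p-values below come from that test unless another is named. The keratinocyte genes Krt5, Krt14, Epcam, Itga6 and Trp63 were detected in every library. On the first principal component of all genes tested (59.2% of the variance), Touchdome replicate 3 lay at -2.86, apart from Touchdome replicates 1 and 2 at -37.6 and -40.7, with HF at 89.2 to 98.7 and IFE at -75.4 to -57.5. On the second, IFE replicate 2 lay at -55.2, apart from IFE replicates 1 and 3 at -12.8 and -6.22.

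Krt17 was about equally abundant in Touchdome and HF and several times lower in IFE. It stood at 1526, 1883 and 1671 CPM in Touchdome, at 1722, 1655 and 1373 CPM in HF and at 255, 269 and 311 CPM in IFE. Every Touchdome and HF library thus lay above every IFE library, and the Touchdome and HF libraries overlapped. Touchdome was higher than IFE by a log2 fold change of 2.60 ± 0.15 (adjusted p = 2.33e-06), and HF was higher than IFE by 2.51 ± 0.15 (adjusted p = 1.23e-07). Between Touchdome and HF the log2 fold change was 0.10 ± 0.14, with a 95% interval of -0.21 to 0.40 (adjusted p = 0.683). In bulk RNA, fewer cells of a type and less RNA per cell cannot be told apart, so these are levels of the sorted populations and not of single cells. The spread was small in all 3 groups, with an SD of 10.6% of the mean in Touchdome, 11.7% in HF and 10.5% in IFE. No alternative processing and no left-out library changed any of these 3 outcomes.

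Krt16, the neighbour of Krt17 on chromosome 11 and like it a type I keratin of wounds, had another pattern. It stood at 270.4, 32.4 and 114 CPM in Touchdome, at 17.6, 9.27 and 17.7 CPM in HF and at 308, 60.8 and 203 CPM in IFE. The HF libraries were the lowest, below every Touchdome and IFE library, and Touchdome and IFE overlapped. Replicate 2 was the lowest library of each group. HF was lower than IFE by a log2 fold change of -3.66 ± 0.95 (adjusted p = 0.0257), and Touchdome was higher than HF by 3.21 ± 0.94 (adjusted p = 0.0499, just under the threshold). The call of Touchdome against HF ended when any 1 library other than Touchdome replicate 2 or IFE replicate 2 was left out (adjusted p = 0.0654 to 0.140), and that of HF against IFE ended without IFE replicates 1 or 3 or any 1 HF library (adjusted p = 0.0627 to 0.0827). The call of Touchdome against HF also ended with no filter on low counts (adjusted p = 0.0879), with only those groups in the fit (0.0606) and with limma on log2 TPM (0.0645 to 0.0745). Touchdome and IFE differed by -0.45 ± 0.84, with a 95% interval of -2.47 to 1.57 (adjusted p = 0.937), and the sign of this value turned without Touchdome replicate 2 (0.012) or IFE replicate 1 (0.076), and it was -1.37 without Touchdome replicate 1 and -0.87 without IFE replicate 2.

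Krt6a, a type II partner of Krt16 and Krt17, was most abundant in HF. It stood at 406.6, 35.0 and 291 CPM in Touchdome, at 406.8, 484 and 523 CPM in HF and at 89.3, 9.50 and 83.7 CPM in IFE. All HF libraries lay above all IFE and Touchdome libraries, although replicate 1 of HF and replicate 1 of Touchdome were nearly equal. Replicate 2 was about an order of magnitude below replicates 1 and 3 in both Touchdome and IFE, but not in HF. None of the comparisons passed the test with all 9 libraries in the fit. HF against IFE gave a log2 fold change of 2.95 ± 1.08 (adjusted p = 0.0829), and it did pass with DESeq2 (adjusted p = 0.00928), with only those groups in the fit (0.0409), with limma on log2(TPM + 1) (0.0449, and 0.0397 with no filter), without Touchdome replicate 2 (0.0329) and without all libraries numbered 2 (5.16e-05, chosen after seeing the data). Touchdome against IFE gave 2.00 ± 1.04 with a 95% interval of -0.51 to 4.51 (adjusted p = 0.601), and passed without all libraries numbered 2 (2.01, adjusted p = 0.00449). Touchdome against HF gave -0.95 ± 1.01 with a 95% interval of -3.37 to 1.48 (adjusted p = 0.577). This value was -0.43 without Touchdome replicate 2, -1.51 without Touchdome replicate 1, -1.69 with the replicate block in all 9 libraries and -1.61 to -1.60 with limma on log2 TPM, and none of these passed.

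Krt6b, the near-identical neighbour of Krt6a on chromosome 15, was a minor transcript everywhere. It stood at 62.0, 0.536 and 5.40 CPM in Touchdome, at 0.0914, 0.316 and 0.197 CPM in HF and at 8.89, 0 and 1.33 CPM in IFE. The HF values rest on 8.36 expected counts over the 3 libraries and are at or below the limit that a count of 0 allows, which was 0.137 to 0.316 CPM there and 0.211 CPM in IFE replicate 2. Such limits cover counting error only. Touchdome replicate 1 held most of the signal, and the sum over libraries was 1039.9 expected counts in Touchdome, against 204.6 in IFE. No comparison passed. The log2 fold change was 2.73 ± 1.73 for Touchdome against IFE (adjusted p = 0.698), but -0.19 without Touchdome replicate 1, 4.88 without IFE replicate 1 and 1.53 with limma on log2(TPM + 1). It was 6.96 ± 2.47 for Touchdome against HF (adjusted p = 0.0923), where the libraries did not overlap and DESeq2 gave an adjusted p of 0.00273. That value was 3.99 without Touchdome replicate 1 (adjusted p = 0.183), 2.62 with limma on log2(TPM + 1) and 4.18 with limma on log2(TPM + 0.1), and these did not pass. For HF against IFE it was -4.23 ± 2.56 (adjusted p = 0.262), and -2.07 without IFE replicate 1, -1.09 with limma on log2(TPM + 1) and -1.77 with limma on log2(TPM + 0.1).

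Krt6a and Krt6b share sequence, so the division of reads between them is an estimate. Of all windows of 75 bases, 42.3% of those in the Krt6a transcript and 39.6% of those in the Krt6b transcript also occur in another gene's transcript, and the aligned transcripts were identical at 93.0% of bases. Their expected counts were not whole in 16 of 18 values, which shows that reads were split, whereas those of the other 5 keratins were whole in all 9 libraries. Krt16 shares 28.9% of its windows with Krt14 and Gm11597, and Gm11597 had 0 counts. By the estimated division of reads, Krt6a made up 86.5% to 98.6% of the summed TPM (a relative abundance per transcript length) of Krt6a and Krt6b in Touchdome. It made up 99.93% to 99.97% in HF and 90.8% to 100.0% in IFE, and these shares cannot check that division. With Krt6a and Krt6b summed into 1 feature, the log2 fold changes were 2.05 ± 1.07 for Touchdome against IFE, -0.82 ± 1.04 for Touchdome against HF and 2.87 ± 1.11 for HF against IFE (adjusted p = 0.604, 0.646 and 0.0960).

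**Figure D1:**
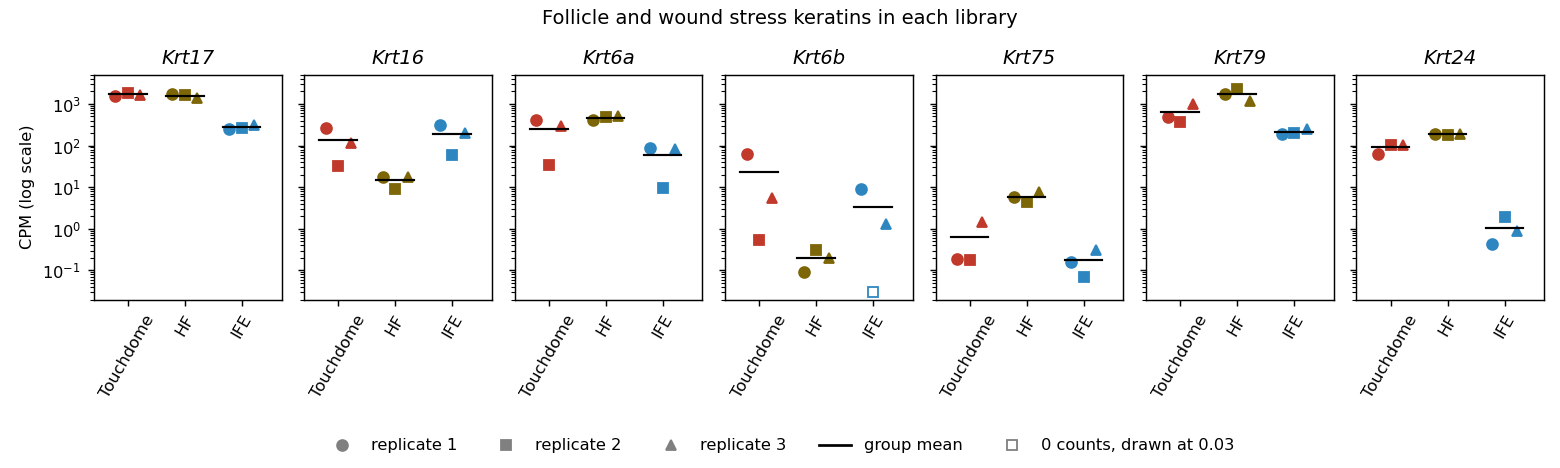
Levels of the 7 keratins in each library, in CPM on a log scale, with 1 panel per gene and the groups Touchdome, HF and IFE from left to right. Points are libraries (shape gives the replicate number), lines are group means, and the open square is 0 counts. Krt17 libraries lie close together within each group, while replicate 2 (squares) lies below the others for Krt6a, Krt6b and Krt16 in both Touchdome and IFE.

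The remaining keratins, Krt75, Krt79 and Krt24, had their highest level in HF and their lowest in IFE. Krt6a had this order of means as well. The promoters of Krt75, Krt79 and Krt24 are shown because they are the 3 of the 7 keratins with an entry in the RefSeq promoter table, so that it can be asked which known motifs they hold. RefSeq (GRCm38.p6) gave the 250 bases before the start of these 3 of the 7 genes, all on the minus strand, at chr15:101573905-101574154 for Krt75, chr15:101940325-101940574 for Krt79 and chr11:99285263-99285512 for Krt24. They are printed 5′ to 3′, with motif matches in capitals.
Krt75: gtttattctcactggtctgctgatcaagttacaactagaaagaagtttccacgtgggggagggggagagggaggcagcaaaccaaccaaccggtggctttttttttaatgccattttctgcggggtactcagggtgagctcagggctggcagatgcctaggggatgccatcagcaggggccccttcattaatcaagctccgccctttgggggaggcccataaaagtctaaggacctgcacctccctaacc
Krt79: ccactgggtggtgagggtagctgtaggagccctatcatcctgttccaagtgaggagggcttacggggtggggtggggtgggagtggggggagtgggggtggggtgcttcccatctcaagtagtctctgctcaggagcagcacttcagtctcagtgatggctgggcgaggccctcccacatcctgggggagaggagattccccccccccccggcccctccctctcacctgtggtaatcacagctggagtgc
Krt24: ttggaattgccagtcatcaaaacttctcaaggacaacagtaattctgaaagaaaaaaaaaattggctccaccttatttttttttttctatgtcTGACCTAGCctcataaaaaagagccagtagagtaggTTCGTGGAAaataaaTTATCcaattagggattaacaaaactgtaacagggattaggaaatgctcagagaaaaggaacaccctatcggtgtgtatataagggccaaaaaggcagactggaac

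The motifs searched, on both strands, were the TATA box TATAAA, AP-1 as TGANTCA, NRF2 as TGACNNNGC, GLI as GACCACCCA, STAT as TTCNNNGAA and GATA as GATAA, which shares the letters ATAA with the TATA box. Matches were found in the Krt24 promoter alone. They were TGACCTAGC for NRF2, starting 157 bases before the gene, TTCGTGGAA for STAT at 121 bases and TTATC for GATA, on the opposite strand, at 106 bases, and these matches do not overlap. The windows of Krt75 and Krt79 held none of the 6 motifs as written. Among 32851 promoter windows of the same length, 10.2% held the NRF2 letters, 7.02% the STAT letters and 22.6% the GATA letters, and the others were in 12.4% (TATA box), 6.75% (AP-1) and 0.225% (GLI) of windows. A match, or the lack of one, describes these letters only, and other forms of the motifs, the TATA box included, were not searched.

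Krt75 was a low transcript of HF. It stood at 0.192, 0.179 and 1.49 CPM in Touchdome, at 5.80, 4.32 and 7.73 CPM in HF and at 0.158, 0.0703 and 0.303 CPM in IFE. These levels come from 23 counts over the Touchdome libraries, 286 over the HF libraries and 12 over the IFE libraries. HF did not overlap with either other group, and within Touchdome replicate 3, the library nearest to HF on the first principal component, was the highest. HF was higher than IFE by a log2 fold change of 4.91 ± 0.80 (adjusted p = 0.000427, and 5.55 without IFE replicate 3), and Touchdome was lower than HF by -3.27 ± 0.73 (adjusted p = 0.00547). Without Touchdome replicate 3 the value against HF was -4.95. Touchdome against IFE gave 1.65 ± 0.83, with a 95% interval of -0.16 to 3.45 (adjusted p = 0.530), and -0.034 without Touchdome replicate 3. With limma on log2(TPM + 1) the values were 0.26 for Touchdome against IFE, -1.71 for Touchdome against HF and 1.97 for HF against IFE, with the same calls, and the first was 0.87 with limma on log2(TPM + 0.1).

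Krt79 was graded over the groups. It stood at 485, 374 and 1013 CPM in Touchdome, at 1744, 2258 and 1158 CPM in HF and at 193, 202 and 252 CPM in IFE. No libraries of different groups overlapped, although Touchdome replicate 3 came close to HF replicate 3. HF was higher than IFE by a log2 fold change of 2.997 ± 0.40 (adjusted p = 0.000542), and Touchdome was lower than HF by -1.46 ± 0.38 (adjusted p = 0.0235). The call against HF ended without Touchdome replicate 1 (adjusted p = 0.0754), IFE replicate 2 (0.0580), HF replicate 1 (0.0598) or HF replicate 2 (0.0703), with no filter (0.0870) and with only those groups in the fit (0.0790), and without all libraries numbered 2 the value was -0.95 (0.204). Touchdome against IFE gave 1.53 ± 0.38 with a 95% interval of 0.66 to 2.41 and did not pass over all genes (adjusted p = 0.137), but did with DESeq2 (0.0198) or without Touchdome replicate 2 (0.0362). Without Touchdome replicate 3, the library nearest to HF, it was 0.99 (adjusted p = 0.120).

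Krt24 had the greatest fold changes of the 7 keratins against IFE. It stood at 63.8, 103 and 103 CPM in Touchdome, at 186, 184 and 190.1 CPM in HF and at 0.421, 1.90 and 0.871 CPM in IFE. The groups did not overlap, and the HF libraries had an SD of 3.16 CPM around a mean of 187 CPM. Touchdome was higher than IFE by a log2 fold change of 6.48 ± 0.38 (adjusted p = 7.24e-05) and HF was higher than IFE by 7.54 ± 0.39 (adjusted p = 6.99e-07). Touchdome was lower than HF by -1.05 ± 0.27 (adjusted p = 0.0182), a call that ended without Touchdome replicate 1 (adjusted p = 0.0566) or any 1 HF library (0.0509 to 0.0574), with no filter (0.0778) and with limma on log2(TPM + 0.1) (0.0539).

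Counted over the 7 keratins, 2 rose (Krt17 and Krt24) and 0 fell in Touchdome against IFE, where 1.22% of all genes tested were higher and 0.0798% lower. Against HF, 1 was higher in Touchdome (Krt16) and 3 were lower (Krt75, Krt79 and Krt24), where 11.8% of all genes were higher and 12.8% lower. In HF against IFE, 4 were higher (Krt17, Krt75, Krt79 and Krt24) and 1 lower (Krt16), where 17.1% of all genes were higher and 16% lower. These comparisons share libraries, so their counts are not independent of each other. The median log2 fold change of the 7 keratins was 2.00 for Touchdome against IFE, -0.95 for Touchdome against HF and 2.95 for HF against IFE, and over all genes tested it was 0.0048, -0.0038 and 0.0042. Libraries did not overlap for 3 keratins upward and 0 downward in Touchdome against IFE, where this held for 8.32% of all genes upward and 6.27% downward. They did not overlap for 2 upward and 4 downward in Touchdome against HF (21.2% and 22.2% of all genes), and for 5 upward and 1 downward in HF against IFE (24.6% and 23.1%).

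**Figure D2:**
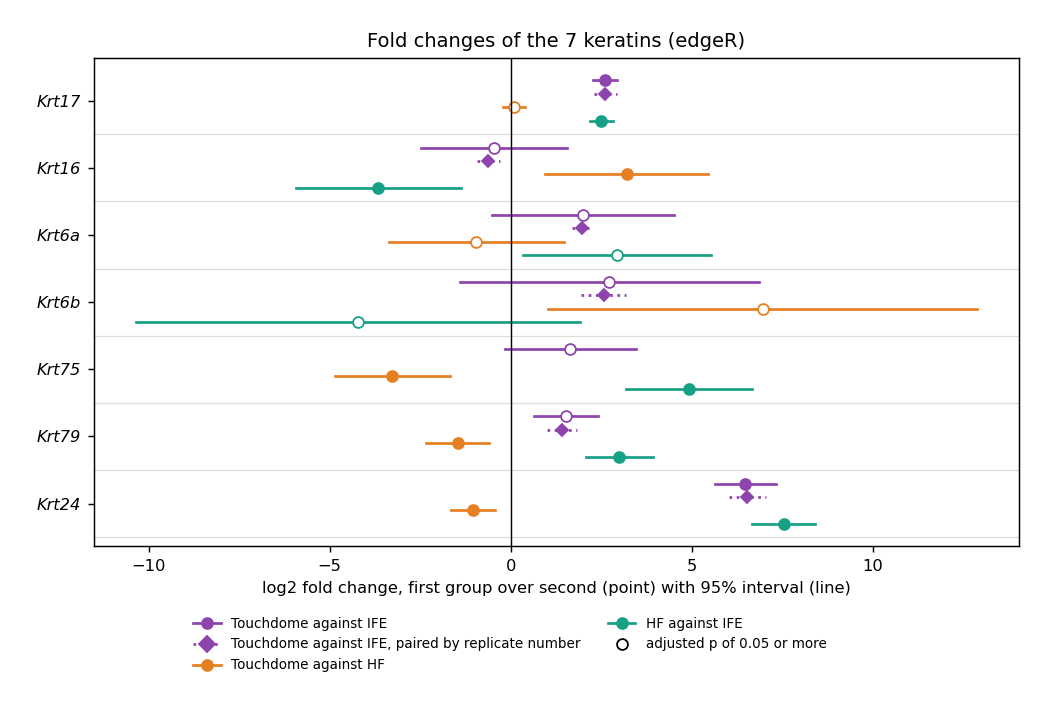
Log2 fold changes of the 7 keratins (points) with 95% intervals (lines) in the edgeR fits, 1 band per gene, for Touchdome against IFE, the same comparison paired by replicate number, Touchdome against HF and HF against IFE. Open points did not pass at an adjusted p of 0.05. Among the unpaired intervals those of Krt17 are the narrowest, and those of Krt6a, Krt6b and Krt16 for Touchdome against IFE shrink when the libraries are paired.

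The low values of number 2 in both Touchdome and IFE were followed further. Over all genes tested, same-numbered Touchdome and IFE libraries deviated together, though weakly (r = 0.146, 0.173 and 0.203 for numbers 1, 2 and 3). Within each number, Krt6a in Touchdome was 4.55, 3.69 and 3.48 times its level in IFE for numbers 1, 2 and 3. Krt6b was 6.97 and 4.07 times its level in IFE for numbers 1 and 3, and IFE number 2 had 0 counts. Krt16 was 0.878, 0.532 and 0.565 times its level in IFE, so Krt6a and Krt16 each kept 1 direction in all 3 pairs and the directions were opposite. The same direction in only 3 pairs is weak evidence, and the share of all genes that keep it was not counted. Krt75, at few counts, was 1.22, 2.54 and 4.93 times its level in IFE. Krt79 was 2.52, 1.86 and 4.02 times, Krt17 5.97, 7.01 and 5.37 times, and Krt24 152, 54.2 and 118 times its level in IFE.

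A fit of the 6 Touchdome and IFE libraries with the replicate number as a block, added after seeing the data, tested 14071 genes and gave calls for all 6 of the keratins it could test. The block takes out what same-numbered libraries share, including the low values of number 2. Its p-values therefore rest on a pairing read from these same data, which the sample titles do not state. In Touchdome, Krt6a was higher by 1.98 ± 0.13 (adjusted p = 2.08e-06), Krt6b by 2.56 ± 0.29 (adjusted p = 0.000334) and Krt79 by 1.43 ± 0.19 (adjusted p = 0.00142). Krt16 was lower by -0.62 ± 0.14 (adjusted p = 0.0345). Krt17 and Krt24 were higher by 2.62 ± 0.15 and 6.53 ± 0.23 (adjusted p = 6.96e-07 and 1.8e-08). That is 5 keratins higher and 1 lower, where 2.64% of all genes tested in this fit were higher and 0.952% lower. Krt75 had too few counts to enter. With only a pair of the 3 numbers in the fit, Krt6a gave 1.84 to 2.06 and Krt79 1.12 to 1.68, and all of these passed. Krt6b did not pass with numbers 2 and 3 (adjusted p = 0.0922), nor Krt16 with numbers 1 and 3 (0.0849) or 1 and 2 (0.255). Such fits leave 1 residual degree of freedom, too few to estimate the spread of a gene from its own libraries. In them edgeR gave adjusted p-values for Krt6a down to 6.47e-21, so a pass there is no check of the pairing. The block over all 9 libraries, in which HF numbers are treated alike, made no additional call among the 7 in Touchdome against IFE (Krt6a adjusted p = 0.520, Krt6b 0.257, Krt16 0.579 and Krt79 0.189).

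**Figure D3:**
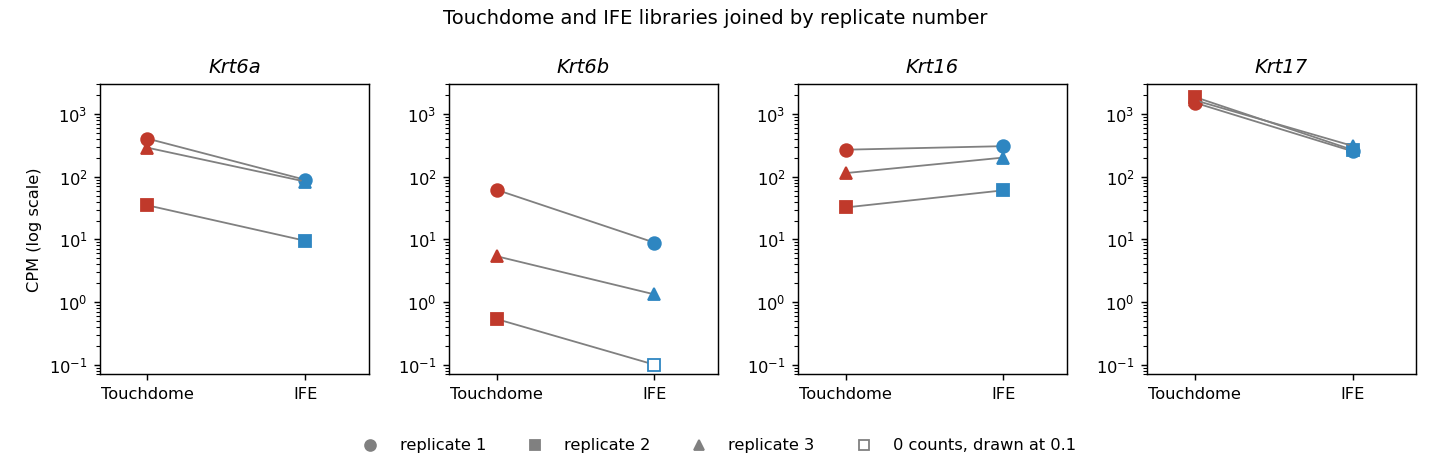
Krt6a, Krt6b, Krt16 and Krt17 in Touchdome (left in each panel) and IFE (right), in CPM on a log scale, with lines joining libraries of the same replicate number. The open square is 0 counts. For Krt6a the 3 lines run nearly parallel, 4.55, 3.69 and 3.48 times higher in Touchdome, although the levels of number 2 are far below those of numbers 1 and 3, and the Krt16 lines run the other way.

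The shared low values of number 2 did not hold for most genes. Number 2 was the lowest of the 3 libraries in both Touchdome and IFE for 18.3% of all genes tested, and at most 50% of the lower other library in both for 186 genes, or 1.24%. The stricter condition held for Krt6a, Krt6b and Krt16 and not for Krt17, Krt75, Krt79 or Krt24. Of 19 tested genes in a list of other wound and stress response genes, 14 were lowest in number 2 of both groups and 5 were at most 50% (Ptgs2, Hbegf, Mmp13, Gjb2 and Lcn2). For Lcn2 this rests on 0 counts, which in IFE number 2 allow up to 0.211 CPM, more than the 0.189 CPM of IFE number 3. Ptgs2, an enzyme of prostaglandin synthesis, stood at 37.9, 13.8 and 27.7 CPM in Touchdome, against 52.8, 23.8 and 52.4 CPM in IFE. The growth factor gene Hbegf stood at 36.9, 14.0 and 44.3 CPM in Touchdome, against 59.7, 22.1 and 58.6 CPM in IFE. Gjb2, a gap junction gene known to be raised in wounded epidermis, stood at 25.3, 2.86 and 29.8 CPM in Touchdome, against 6.26, 2.74 and 6.13 CPM in IFE. Of 20 immediate early and heat shock genes that respond to tissue dissociation, 19 were lowest in number 2 of both groups and 0 were at most 50%. Of 20 regulators described as acting on Krt6, Krt16 or Krt17, a list that shares Fos, Jun and Junb with those, 10 were lowest. Only Fosl1 among them was at most 50%, at 141.6, 38.5 and 122.8 CPM in Touchdome, against 410, 94.5 and 221.6 CPM in IFE. Number 2 was also lowest for 5 of 12 upper follicle genes and 1 of 10 basal and suprabasal keratins. Libraries of number 2 in Touchdome and IFE also had the highest share of counts in genes without a symbol, at 1.765% in Touchdome and 2.135% in IFE, against 0.673% to 1.202% in the other 7 libraries. Paired by number, 9 of the 20 dissociation genes were lower and 0 higher in Touchdome than in IFE. The part of the dissociation genes, of that share, or of a shared preparation, in the Krt6a, Krt6b and Krt16 values was not tested.

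Set beside each other per length, Krt17 had the highest mean of the 7 keratins in every group. It averaged 2068 ± 250.2 TPM in Touchdome, 2034 ± 264 TPM in HF and 307 ± 32.8 TPM in IFE (SD, n = 3 each), and ranked 5th in Touchdome, 4th in HF and 8th in IFE among the 54 keratin genes. Krt79 came next in Touchdome and HF, with 551 ± 306 TPM in Touchdome and 1598 ± 516 TPM in HF, and it averaged 171 ± 27.7 TPM in IFE. In IFE, Krt16 held that place with 214 ± 149 TPM, against 166 ± 142 TPM in Touchdome and 18.9 ± 6.10 TPM in HF. Krt6a averaged 191 ± 147 TPM in Touchdome, 389 ± 44.5 TPM in HF and 44.6 ± 33.4 TPM in IFE, and Krt24 averaged 90.0 ± 23.9 TPM in Touchdome, 195.6 ± 1.70 TPM in HF and 0.930 ± 0.609 TPM in IFE. Krt6b averaged 17.9 ± 26.9 TPM in Touchdome, 0.180 ± 0.108 TPM in HF and 2.63 ± 3.74 TPM in IFE, and Krt75 averaged 0.333 ± 0.404 TPM in Touchdome, 3.32 ± 0.921 TPM in HF and 0.0867 ± 0.0603 TPM in IFE. Neighbours in this order often overlapped. In Touchdome the libraries of Krt6a (27.9 to 313 TPM) overlapped with those of Krt16 (39.5 to 320 TPM), in HF those of Krt17 (1735 to 2234 TPM) overlapped with those of Krt79 (1065 to 2095 TPM), and in IFE those of Krt16 (62.2 to 359 TPM) spanned both Krt17 (277 to 342 TPM) and Krt79 (149 to 202 TPM).

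Together the 7 keratins held 7.15 ± 1.14% of all keratin TPM in Touchdome, 14.3 ± 1.42% in HF and 1.64 ± 0.469% in IFE (SD, n = 3 each). The ranges were 6.29% to 8.45% in Touchdome, 12.9% to 15.7% in HF and 1.11% to 1.98% in IFE, so the groups did not overlap. The total of keratin TPM differed less, at 43403 ± 2359 in Touchdome, 29495 ± 2391 in HF and 45038 ± 212 in IFE. The TPM ratio of Krt17 to Krt16 was 5.70 to 58.8 in Touchdome, 78.4 to 180.4 in HF and 0.838 to 4.46 in IFE, with no overlap between groups. Krt17 TPM was 19.5 ± 4.72% of that of Krt14, the main type I keratin of basal cells, in Touchdome, 68.9 ± 2.25% in HF and 2.24 ± 0.0938% in IFE. Krt14 itself stood at 9868 ± 1593 CPM in Touchdome, 2538 ± 236 CPM in HF and 13590.1 ± 1407 CPM in IFE, which enters that percentage.

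**Figure D4:**
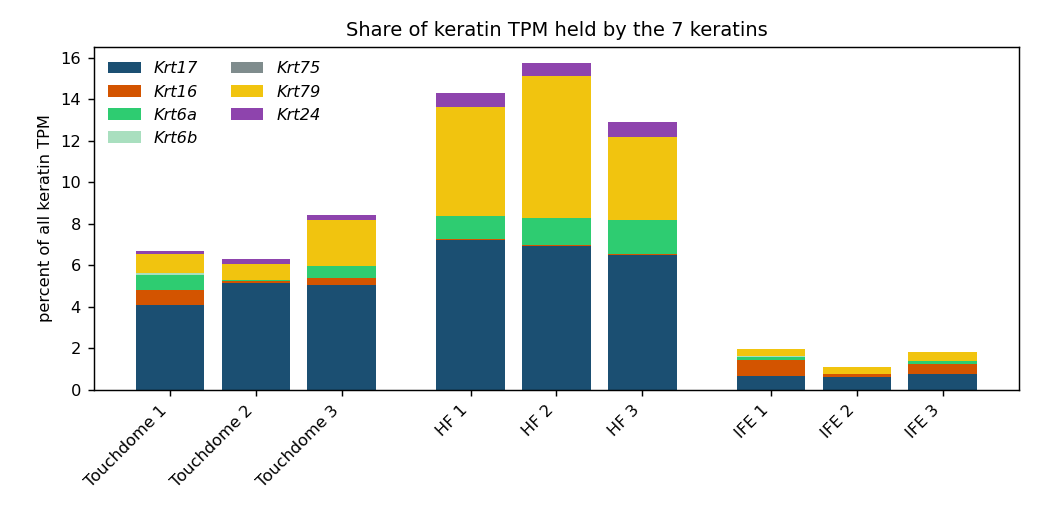
Share of all keratin TPM held by each of the 7 keratins, in percent, stacked per library for Touchdome, HF and IFE. The stacks reach 6.29% to 8.45% in Touchdome, 12.9% to 15.7% in HF and 1.11% to 1.98% in IFE, with Krt17 the greatest part in every Touchdome and HF library and a nearly equal Krt79 part in HF replicate 2.

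Other genes of the wound and stress response (alarmins, cornified envelope precursors, cytokines and growth factors) gave no call between Touchdome and IFE when libraries were not paired. Of 19 tested, none rose or fell in Touchdome against IFE (0 and 0 calls), with a median log2 fold change of 0.47. Over all genes tested 1.22% were higher and 0.0798% lower, so 0 calls among 19 genes says little about this list. Sprr1a, a cornified envelope precursor, stood at 46.4 ± 21.7 CPM in Touchdome libraries, against 24.0 ± 4.06 CPM in IFE libraries (adjusted p = 0.423). In the fit of 6 libraries paired by number, 3 of 18 tested were higher in Touchdome (Mmp9, Gjb2 and Gjb6) and 2 lower (Ptgs2 and Hbegf). The median was 0.32, and over all genes in that fit 2.64% were higher and 0.952% lower. Gjb6, a gap junction gene, stood at 11.2, 7.69 and 14.4 CPM in Touchdome, against 5.05, 3.52 and 6.78 CPM in IFE (adjusted p = 0.0122, paired). Against HF, 4 were higher and 2 lower in Touchdome (median 0.05), and in HF against IFE 4 rose and 2 fell (median 0.45). Il1rn, the interleukin 1 receptor antagonist, had the order of Krt16, at 81.5 ± 18.6 CPM in Touchdome, 7.73 ± 2.10 CPM in HF and 105.9 ± 16.3 CPM in IFE (adjusted p = 1.52e-06 for Touchdome against HF and 4.66e-07 for HF against IFE). Plau, the urokinase gene, was likewise lower in HF, with 12.2 ± 1.86 CPM against 45.4 ± 2.95 CPM in IFE (adjusted p = 9.69e-07). Itga5, an integrin of migrating keratinocytes, was higher in HF, with 27.0 ± 2.90 CPM against 11.6 ± 3.09 CPM in IFE (adjusted p = 0.000628).

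Among 20 regulators described as acting on Krt6, Krt16 or Krt17, 2 rose and 0 fell in Touchdome against IFE. These were the Hedgehog effectors Gli1, with 74.4 ± 21.3 CPM in Touchdome against 2.13 ± 0.667 CPM in IFE, and Gli2, with 44.2 ± 9.06 CPM in Touchdome against 3.59 ± 0.652 CPM in IFE. Their adjusted p-values were 0.000208 for Gli1 and 1.8e-06 for Gli2. In HF, Gli1 stood at 146.6 ± 49.3 CPM and Gli2 at 132.8 ± 11.96 CPM. The median of the list was -0.04 for Touchdome against IFE. Paired by number, Gli1 and Gli2 were again higher and 4 of 19 were lower in Touchdome (Junb, Jund, Fos and Fosl1). Against HF, 0 regulators rose and 5 fell in Touchdome (median -0.31), and in HF against IFE 5 rose and 0 fell (median -0.01). Nr3c1, the glucocorticoid receptor, known to repress these keratin genes, averaged 163 ± 13.7 CPM in Touchdome and was higher in HF, with 396 ± 45.1 CPM against 152 ± 18.6 CPM in IFE (adjusted p = 5.89e-06).

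Genes of the follicle compartments gave a frame for Krt75, Krt79 and Krt24. Of 12 upper follicle genes, 0 rose and 1 fell (Lgr6) in Touchdome against IFE (median 0.55), and paired by number 3 rose (Cst6, Defb6 and Nebl) and 2 fell (Plet1 and Lgr6). In Touchdome against HF, 1 rose (Ptgs1) and 7 fell (median -1.0002), and in HF against IFE, 8 rose and 1 fell (median 1.59). Cst6, a protease inhibitor gene, stood at 369 ± 123.3 CPM in HF, against 38.3 ± 10.98 CPM in IFE (adjusted p = 0.000592). Of 18 outer root sheath and bulge genes, 5 rose and 0 fell in Touchdome against IFE (median 0.75), and paired by number 8 rose and 0 fell. In Touchdome against HF, 0 rose and 16 fell (median -2.10), and in HF against IFE, 16 rose and 1 fell (median 2.65). Nfatc1, a factor of bulge stem cells, stood at 126 ± 38.4 CPM in Touchdome, 525.7 ± 20.8 CPM in HF and 94.0 ± 3.12 CPM in IFE. Gas1, a Hedgehog co-receptor, stood at 191 ± 3.52 CPM in Touchdome, 561 ± 44.1 CPM in HF and 127 ± 5.16 CPM in IFE.

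Of the other keratins, 10 genes of basal and suprabasal epidermis included 0 that rose or fell in Touchdome against IFE, and 1 that rose with pairing (Krt78). In Touchdome against HF, 5 rose and 1 fell, and in HF against IFE, 0 rose and 4 fell. Krt1, a suprabasal keratin, stood at 2215 ± 335 CPM in Touchdome, 213.5 ± 35.6 CPM in HF and 1551 ± 217 CPM in IFE. Keratins of other epithelia and of the inner follicle and hair shaft were mostly low. Of the simple keratins, 2 were tested and Krt8 was called higher in Touchdome and in HF than in IFE, with 2.99 ± 3.62 CPM in Touchdome, 2.07 ± 0.444 CPM in HF and 0.0603 ± 0.0543 CPM in IFE. Of the inner root sheath keratins, 5 were tested, Krt73 was called in Touchdome against HF, with 3.66 ± 3.31 CPM in Touchdome against 0.135 ± 0.137 CPM in HF, and Krt26 in HF against IFE, with 0.585 ± 0.328 CPM in HF against 0.0252 ± 0.0437 CPM in IFE. The 1 tested hair shaft keratin, Krt32, stood at 10.7 ± 1.97 CPM in Touchdome, 6.91 ± 0.969 CPM in HF and 14.9 ± 6.35 CPM in IFE, lower in HF than in IFE (adjusted p = 0.0113). The 1 tested mucosal keratin, Krt4, averaged 0.709 ± 0.517 CPM in Touchdome, 0.469 ± 0.474 CPM in HF and 1.03 ± 0.293 CPM in IFE, with no call.

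Markers of other cells moved with some of these differences. All 10 sebocyte markers were tested, with 0 called in Touchdome against IFE, 7 lower and 0 higher in Touchdome against HF, and 9 higher and 0 lower in HF against IFE. Their summed level was 595 to 690 CPM in Touchdome, 1090 to 2042 CPM in HF and 447 to 703 CPM in IFE. The HF sums lay above those of both other groups, as did the HF levels of Krt6a, Krt75, Krt79 and Krt24. The Touchdome and IFE sums overlapped. Most of these 2 sums was Scd1 (191 to 266 CPM in Touchdome, 198 to 265 CPM in IFE) and Fasn (245 to 323 CPM in Touchdome, 195 to 384 CPM in IFE). Pparg stood at 0 to 0.498 CPM in Touchdome, 6.22 to 25.3 CPM in HF and 0.0703 to 0.379 CPM in IFE. Plin2 was less sparse outside HF, at 21.3 to 38.7 CPM in Touchdome and 18.4 to 22.5 CPM in IFE. Fibroblast markers (5 of 6 tested) summed to 45.3 to 90.2 CPM in Touchdome, 62.2 to 87.1 CPM in HF and 0.844 to 2.95 CPM in IFE. Of them, 2 were higher in Touchdome than in IFE and 3 higher in HF than in IFE. Touchdome against HF had 1 higher (Dcn) and 1 lower (Col1a2). In HF most of the sum was Col1a2, at 54.1 to 73.3 CPM, against 15.3 to 21.5 CPM in Touchdome. Dcn stood at 16.4 to 25.3 CPM in Touchdome and at 0 to 0.0655 CPM in HF, so similar sums there hold different genes. Of 9 Merkel cell markers, 3 were tested, with 1 higher in Touchdome than in IFE, 1 lower in Touchdome than in HF and 3 higher in HF than in IFE, and Atoh1, Sox2 and Chga had 0 counts in every library. Merkel cell markers summed to 1.79 to 11.1 CPM in Touchdome, 15.8 to 33.6 CPM in HF and 0.114 to 0.633 CPM in IFE. In HF most of that sum was Cck, at 11.9 to 29.6 CPM, against 0.268 to 0.448 CPM in Touchdome.

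Melanocyte markers (4 of 6 tested) summed to 5.81 to 28.1 CPM in Touchdome, 8.45 to 29.9 CPM in HF and 3.07 to 3.94 CPM in IFE, with 3 higher in HF than in IFE. Langerhans cell markers, a list that includes Epcam, summed to 226 to 480.3 CPM in Touchdome, 329 to 668 CPM in HF and 207 to 315 CPM in IFE, with 1 of 6 lower in Touchdome than in HF and 2 higher in HF than in IFE. T cell markers (5 of 6 tested) summed to 122 to 152 CPM in Touchdome, 6.74 to 8.04 CPM in HF and 113 to 201 CPM in IFE, nearly all from Thy1, with 3 higher in Touchdome than in HF and 2 lower in HF than in IFE, the order also seen for Krt16. Endothelial markers had 1 of 4 tested and no call, and summed to 1.83 to 2.56 CPM in Touchdome, 0 to 0.640 CPM in HF and 0.631 to 0.774 CPM in IFE. The 5 keratinocyte markers summed to 28486 to 33422 CPM in Touchdome, 14395 to 15480 CPM in HF and 37794 to 41500.0 CPM in IFE, with 0 called between Touchdome and IFE, 4 higher in Touchdome than in HF, and 1 higher and 3 lower in HF than in IFE. With Touchdome and IFE paired by number, 4 of 4 tested fibroblast, 2 of 4 melanocyte, 1 of 7 sebocyte, 1 of 6 Langerhans cell and 1 of 1 Merkel cell markers were higher in Touchdome, and none was lower. The part of these cell types in the keratin differences was not tested.

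The genes whose log2 CPM ran most like each keratin over the 9 libraries were taken by Pearson's r among 10263 genes with at least 10 CPM in some group. All values of a library share its depth and preparation and the libraries fall into 3 groups, so r is a description of likeness only. Krt17 was most like Pcdh20 (r = 0.991), Pi15 (0.978) and Krt24 (0.974), and Krt24 was most like Gli1 (0.992), Krt17 and Pi15 (0.973). Krt79 was most like Skint4 (0.990), Intu (0.989) and Endod1 (0.989). Krt75 was most like Sardh (0.996), Eps8 (0.992) and Nfatc4 (0.991). Krt16 was most like Arntl2 (0.985), Sh3bp2 (0.978) and Slc7a1 (0.970), Krt6a most like Osbpl3 (0.977), Slc16a1 (0.974) and Gm14440 (0.968), and Krt6b most like Stam (0.951), Prim2 (0.940) and Ppa1 (0.933). Krt17 and Krt24 were the only pair of the 7 keratins that appeared in each other's 3 most similar genes.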

How the data were processed

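RNA-seq was analysed from 9 libraries, 3 each of Touchdome, HF and IFE cells. The deposited table holds an expected count and a TPM value per gene and library. As deposited, the expected counts are estimates per gene without scaling between libraries. The deposited TPM values sum to the same total in each library and so carry no depth. The submitters' processing notes name the build mm39 and STAR 2.7.9a, RSEM 1.3.3 and DESeq2 1.38.2. What each did, which annotation was used and how strand was treated is not stated there, so reads of overlapping and antisense genes cannot be told apart. Symbols came from a GENCODE table (52081 of 55357 identifiers), transcript sequences from the same release, and gene neighbours from RefSeq (GRCm38.p6). Because the promoter table is of another build than the counts, its coordinates are used for no count. An NF-kB motif was also tried in the promoters of Krt75, Krt79 and Krt24, without a match, and was left out of the motif search reported here.

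Expected counts were rounded to whole numbers, filtered with filterByExpr of edgeR 4.0.16 in R 4.3.3 (minimum count 10, minimum total 15, 15046 genes left) and scaled by TMM. Robust quasi-likelihood tests with 9 libraries in 1 fit gave two-sided p-values, adjusted by Benjamini-Hochberg over all genes tested (threshold 0.05), and the SE is the log2 fold change over the square root of F. DESeq2 1.42.0, limma 3.58.1 on log2(TPM + 1) or log2(TPM + 0.1) for genes with a mean of at least 1 TPM in a group, other filters, other libraries in the fit, a replicate block and left-out libraries were the alternatives. Limits for a count of 0 use 3 counts and cover counting error only. No pair of libraries in a group agreed within sampling noise (chi-square per degree of freedom of 16.8 to 75.9). The highest values were those of IFE replicate 2, at 75.9 with replicate 1 and 70.6 with replicate 3. Between IFE replicates 1 and 3 the value was 21.3.

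Replicate numbers come from the sample titles, which do not say what they mark. Deviations from the group mean correlated by 0.146, 0.173 and 0.203 in same-numbered Touchdome and IFE libraries, so these were treated as pairs, and by -0.026 to 0.070 in pairs with HF, which were not. The 7 keratins, the gene lists and the tests were chosen with earlier results of these data known. All 7 keratins are named, with the 3 genes most like each (log2 CPM with a prior count of 2), and of each list up to 3 called genes with the smallest p or, where none passed, up to 2 with the highest level. The 5 wound genes low in replicate 2, Cck and the list genes named with pairing were named after their values were seen.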

Additional observations from a re-analysis of the deposited data

How the results depend on the processing

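The 21 comparisons of single keratins had 417 alternatives, the fits with 1 residual degree of freedom included. Of these alternatives, 358 kept the direction and the side of the threshold, 30 lost a call and 25 gained one. The other 4 turned direction, none of them in a called value. The 4 were, in Touchdome against IFE, Krt6b without Touchdome replicate 1 (-0.19), Krt16 without Touchdome replicate 2 (0.012) or IFE replicate 1 (0.076), and Krt75 without Touchdome replicate 3 (-0.034). With 1 library left out, these log2 fold changes ranged from -0.19 to 4.88 for Krt6b, -1.37 to 0.076 for Krt16 and -0.034 to 2.29 for Krt75. The cause of these changes was not tested. Krt75 had 12 counts over the IFE libraries and Krt6b 8.36 over the HF libraries, which limits what those levels can show. In Touchdome against IFE, 184 genes were higher and 12 lower. These counts were 446 and 84 with DESeq2, 100 and 5 with only those groups in the fit, 68 and 0 with limma on log2(TPM + 1), 120 and 0 with limma on log2(TPM + 0.1), 50 and 0 with limma and no filter, and 121 and 37 without all libraries numbered 2 (an alternative chosen after seeing the data). With no filter on low counts, 49 genes were lower. TPM scaling moved the median of all genes to 0.13 or 0.15 in Touchdome against IFE and to 0.19 or 0.21 in HF against IFE, so its fold changes are relative to that shift.

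Of the 7 keratins in Touchdome against HF, Krt16 was the 1 called higher, and the count was 2 with DESeq2 and 0 with no filter, with only those groups and with limma in its 3 forms. The count of 3 lower was 1 with no filter. Genes higher in Touchdome than in HF (1773) numbered 1069 with limma and no filter, and genes lower in HF than in IFE (2401) numbered 1194, 1216 and 1071 with limma on log2(TPM + 1), on log2(TPM + 0.1) and with no filter. As a share of all TPM in place of keratin TPM, the 7 keratins held 0.308% in Touchdome, 0.424% in HF and 0.0740% in IFE.

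Pairing by replicate number mattered in Touchdome against IFE. With the replicate block in 9 libraries, 282 genes were higher and 67 lower, and with the block in the 6 Touchdome and IFE libraries 372 were higher and 134 lower, among them 5 keratins higher and 1 lower, against 2 and 0 with no block. With the 9-library block, keratins higher in Touchdome than in HF numbered 2 and keratins lower in HF than in IFE numbered 2, since Krt6b passed in both (adjusted p = 0.00828 and 0.0465, edgeR), although HF numbers were not paired with the others.

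With any 1 library left out, keratins called numbered 2 to 3 higher and 0 lower in Touchdome against IFE, 0 to 1 higher and 1 to 3 lower in Touchdome against HF, and 4 to 5 higher and 0 to 1 lower in HF against IFE. All genes numbered 105 to 216 higher and 4 to 29 lower in Touchdome against IFE, 1393 to 2126 and 1324 to 2220.0 in Touchdome against HF, and 2168 to 2627 and 1885 to 2379 in HF against IFE. Shares of keratin TPM were 6.50% to 7.58% in Touchdome, 13.6% to 15.01% in HF and 1.47% to 1.91% in IFE.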

Other observations

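The balance between the type I and the type II members of the wound keratin group differed widely between libraries within Touchdome and within IFE. The TPM of Krt16 and Krt17 together was 5.92, 83.4 and 9.35 times that of Krt6a and Krt6b together in Touchdome replicates 1, 2 and 3. In HF it was 4.13 to 6.65 times and in IFE 8.84 to 53.7 times. In Touchdome the sum of Krt16 and Krt17 was nearly constant, at 2143 to 2363 TPM. Most of it was Krt17, at 1823, 2323 and 2058 TPM in replicates 1, 2 and 3. Krt16 alone stood at 320, 39.5 and 139 TPM, lowest in replicate 2. The sum of the type II members, at 28.3 to 362 TPM, was lowest in replicate 2 as well. No test was made of these ratios.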
